A study of Danio rerio with 4 samples.

Results

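Immunoproteasome and PA28 genes were examined in whole zebrafish larvae (*Danio rerio*) at 5 days post fertilization (dpf). The set held 8 genes of the 15171 rows in the deposited gene count table: *psmb8a*, *psmb9a*, *psmb10*, *psmb12*, *psmb13a*, *psma6l*, *psme1* and *psme2*. They were chosen by symbol, with results of these data already known, and each symbol matched 1 row, so the rule of keeping the row with most counts chose nothing. The mutant group was 2 libraries of larvae homozygous for the hi272 allele of *uhrf1*, which encodes a factor that brings the maintenance DNA methyltransferase Dnmt1 to replicating DNA. The sibling group was 2 libraries of phenotypically normal larvae, labelled as a mix of +/+ and +/-. Each library pooled 10 larvae sorted by phenotype, so single larvae cannot be read, nor wild type apart from heterozygotes, and the labels name no treatment. Larvae came from 2 clutches per the design text, but which library came from which clutch is not stated, so p-values reflect differences among these 4 pools and nothing wider.

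The proteasome is a barrel of stacked rings that degrades ubiquitinated proteins, and the inner beta rings carry the peptidase sites. Interferon replaces the constitutive catalytic subunits with inducible ones to form the immunoproteasome, whose products favour peptides that bind MHC class I, and blood cells carry it without induction. PA28 is a ring of alpha and beta chains, encoded by *psme1* and *psme2*, that caps the barrel and opens it without ubiquitin, and it is also interferon-inducible. In mammals PSMB8, PSMB9 and PSMB10 replace PSMB5, PSMB6 and PSMB7. Zebrafish carry further copies: the RefSeq synonyms class *psmb12* with the *psmb6* type and *psmb13a* with the *psmb7* type, and *psma6l* is named as a copy of the outer-ring subunit Psma6. Alternative haplotypes of the zebrafish MHC region are known to differ in their proteasome genes.

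Counts assigned to genes came to 9100665 and 3299449 in mutants 1 and 2, against 4981004 and 2996676 in siblings 1 and 2. Values below are in CPM, which sets a count against library size after TMM scaling, and raw counts are given where they are few. One count was worth 0.110 and 0.288 CPM in mutants 1 and 2, against 0.225 and 0.314 CPM in siblings 1 and 2. *uhrf1* itself stood at 33.3 and 24.2 CPM in the mutants, against 21.4 and 46.8 CPM in the siblings. Since the groups overlapped, this gene cannot serve as a check of the labels, and "mutant" stands for a library so labelled. Levels are not compared between genes, since transcript lengths were not used here. In whole larvae, fewer cells of a type and less RNA per cell cannot be told apart.

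All 8 genes were higher in mutants, and in each of them both mutant libraries lay above both sibling libraries. Summed over the 8 genes, expression was 423 and 426 CPM in mutants 1 and 2, against 48.7 and 40.2 CPM in siblings 1 and 2. edgeR's quasi-likelihood test, fitted on 12786 genes with Benjamini-Hochberg adjustment, passed all 8 at an adjusted p of 0.05. Over all genes tested, 4.58% passed as higher, and both mutants lay above both siblings for 28.0%. The median log2 fold change (mutant over sibling) was 4.29 for the 8 genes and 0.00 for all genes tested. These counts describe a set drawn up with results known. All 8 passed the low-count filter, but 5 would not have passed on the sibling libraries alone (*psmb8a*, *psmb9a*, *psmb10*, *psmb12* and *psmb13a*). Of these, *psmb8a*, *psmb9a*, *psmb12* and *psmb13a* could enter the test only by being high in mutants. *psmb10* reached the cut-off of the filter in 1 sibling library, so 1 mutant library at that cut-off was enough.

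**Figure D1:**
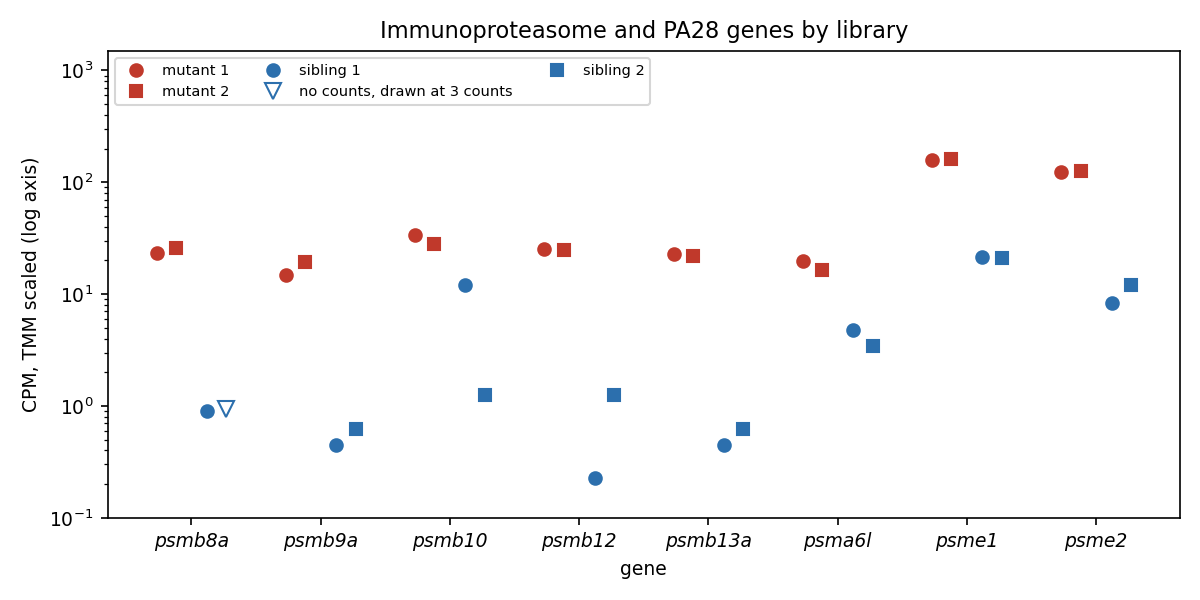
CPM (log axis) of the 8 genes in each library, mutants in red and siblings in blue, circles for replicate 1 and squares for replicate 2. The open triangle marks *psmb8a* in sibling 2, which had no counts and is drawn at 3 counts (0.943 CPM), and in every gene both mutants lie above both siblings.

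Of the catalytic beta subunits, 4 were nearly undetected in siblings. *psmb8a*, whose mammalian counterpart cleaves after hydrophobic residues, had 213 and 90 counts in mutants 1 and 2, against 4 and 0 counts in siblings 1 and 2. In CPM it stood at 23.4 and 25.9 in the mutants, against 0.902 and 0 in the siblings. The mutant pools differed little from each other, and no sibling value came near them. On the log2 scale the change was 5.50 (± 0.58 SE, adjusted p = 0.000405 in edgeR). Pooling the counts of each group gave a ratio of 45.9, whose exact 95% interval of 17.8 to 170 covers counting error only. Against the 3-count floor of sibling 2 alone, the mutant mean was at least 26.1-fold higher. Without sibling 2 the log2 fold change was 4.73, and without sibling 1 no sibling count is left.

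*psmb9a*, the counterpart of the mammalian inducible subunit that replaces the caspase-like site, had 134 and 68 counts in mutants, against 2 and 2 in siblings. That was 14.7 and 19.6 CPM in mutants 1 and 2, against 0.451 and 0.629 CPM in siblings 1 and 2. The fitted log2 fold change was 4.94 (± 0.52 SE, adjusted p = 0.000405 in edgeR), and the pooled count ratio was 30.6 (exact 95% interval 11.8 to 113). The fish gene *psmb12*, of the same subunit type by its synonyms, had 231 and 86 counts in mutants, against 1 and 4 in siblings. In CPM it stood at 25.4 and 24.7 in mutants 1 and 2, against 0.225 and 1.26 in siblings 1 and 2. The mutants were close to each other, while the siblings differed 5.58-fold on a handful of counts. edgeR put the log2 fold change at 5.19 (± 0.52 SE, adjusted p = 0.000313), with 4.29 without sibling 1 and 6.66 without sibling 2. The interval of its pooled count ratio, 16.3 to 119, overlaps those of *psmb8a* and *psmb9a*, so the order of these large folds is not resolved.

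The remaining beta subunits belong to the type of the trypsin-like site. *psmb13a*, found as a separate gene in fish, had 208 and 77 counts in mutants, against 2 and 2 in siblings, or 22.9 and 22.1 CPM in mutants 1 and 2, against 0.451 and 0.629 CPM in siblings 1 and 2. Its log2 fold change was 5.36 (± 0.47 SE, adjusted p = 0.000164 in edgeR). *psmb10*, the counterpart of mammalian PSMB10, behaved differently in the siblings. It stood at 33.9 and 27.9 CPM in mutants 1 and 2, against 11.95 and 1.26 CPM in siblings 1 and 2. The siblings differed widely, with 53 counts in sibling 1 and 4 in sibling 2, although both lay below the mutants. The fitted log2 fold change was 2.14 (± 0.57 SE, adjusted p = 0.0464 in edgeR). The value rests on which sibling is kept, with 4.60 without sibling 1 and 1.38 without sibling 2. Its call ended without mutant 1 (edgeR adjusted p = 0.0900), with DESeq2 (adjusted p = 0.382) and with a filter of 50 counts in 2 libraries (edgeR adjusted p = 0.0540).

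*psma6l*, a copy of an outer-ring alpha subunit that carries no peptidase site, had a fold change close to that of *psmb10*. It stood at 19.9 and 16.4 CPM in mutants 1 and 2, against 4.73 and 3.46 CPM in siblings 1 and 2. The groups did not overlap, and the log2 fold change was 2.13 (± 0.36 SE, adjusted p = 0.00478 in edgeR).

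The activator genes were detected well in every library and had the smallest errors. *psme1*, encoding the alpha chain of PA28, stood at 158 and 163 CPM in mutants 1 and 2, against 21.6 and 21.1 CPM in siblings 1 and 2. edgeR put the log2 fold change at 2.91 (± 0.22 SE, adjusted p = 6.34e-05). *psme2*, encoding the beta chain, stood at 124 and 126 CPM in mutants 1 and 2, against 8.34 and 11.9 CPM in siblings 1 and 2. On the log2 scale the change was 3.64 (± 0.26 SE, adjusted p = 4.50e-05 in edgeR). Replicates of each group lay close together for both genes, far from the other group. Within a library, *psme2* had 78.7 and 77.4 counts per 100 counts of *psme1* in mutants 1 and 2, against 38.5 and 56.7 in siblings 1 and 2. That pair was compared after its values were seen. The log2 ratio of *psme2* to *psme1* was higher in both mutants, by 0.73 (pooled SD 0.28, n = 2 each). An exact two-sided permutation test gave p = 0.333, the smallest that 2 libraries against 2 allow.

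Among the mutants, replicate 2 over replicate 1 ran from 0.823 for *psmb10* and *psma6l* to 1.33 for *psmb9a*. Among siblings the same ratio ran from 0 for *psmb8a* to 5.58 for *psmb12*, where the counts are few.

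Constitutive genes of the same families were measured beside the inducible ones. These were *psmb5*, *psmb6* and *psmb7*, of the types that are replaced in mammals, and the related *psma6a*, *psma6b* and *psme3*. *psmb5* stood at 82.9 and 86.0 CPM in mutants 1 and 2, against 55.7 and 49.4 CPM in siblings 1 and 2. Its log2 fold change of 0.68 (SE 0.20) did not pass (edgeR adjusted p = 0.0702). *psmb6* had 46.1 and 40.3 CPM in mutants 1 and 2, against 46.4 and 19.8 CPM in siblings 1 and 2, and *psmb7* had 100.2 and 95.2 CPM in mutants, against 123 and 67.0 CPM in siblings. The groups overlapped for *psmb6* and *psmb7*, whose log2 fold changes were 0.37 (± 0.34 SE, adjusted p = 0.561 in edgeR) and 0.03 (± 0.28 SE, adjusted p = 0.963 in edgeR). The call of *psmb6* depended on sibling 1, since it passed without it (log2 fold change 1.12, edgeR adjusted p = 0.0125). *psma6a* and *psma6b*, the other genes for Psma6, had log2 fold changes of 0.55 (SE 0.29) and 0.13 (SE 0.30) and did not pass (edgeR adjusted p = 0.298 and 0.836). *psme3*, which encodes the nuclear gamma form of PA28, stood at 26.97 and 36.2 CPM in mutants 1 and 2, against 17.6 and 17.6 CPM in siblings 1 and 2. Its log2 fold change was 0.83 (± 0.26 SE, adjusted p = 0.0849 in edgeR).

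**Figure D2:**
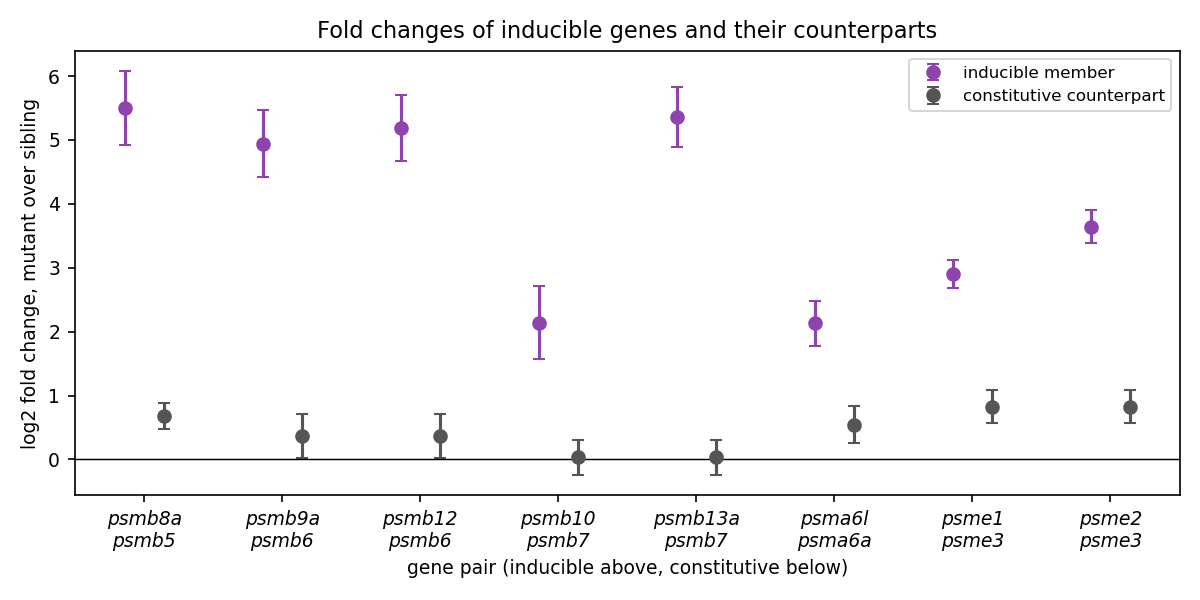
Log2 fold changes (mutant over sibling, edgeR, bars are 1 SE) of each inducible gene in purple and of its constitutive counterpart in grey. The inducible genes lie between 2.13 and 5.50, and the counterparts between 0.03 and 0.83.

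A ratio of 2 genes within a library does not depend on how libraries are scaled. *psmb8a* had 28.3 and 30.1 counts per 100 counts of *psmb5* in mutants 1 and 2, against 1.62 and 0 in siblings 1 and 2. *psmb9a* had 32.0 and 48.6 per 100 of *psmb6* in mutants, against 0.971 and 3.17 in siblings. *psmb10* had 33.8 and 29.3 per 100 of *psmb7* in mutants, against 9.69 and 1.88 in siblings. Transcript length enters these ratios, so their change between groups can be read but not the level as a molar share. With 0.5 counts added to each gene, the log2 ratio was higher in mutants by 5.27 for *psmb8a* (pooled SD 1.26), 4.18 for *psmb9a* (pooled SD 0.90) and 2.80 for *psmb10* (pooled SD 1.11), with n = 2 each. The *psmb8a* ratio in sibling 2, which had no *psmb8a* counts, was set by the 0.5 counts added. Without sibling 2 the *psmb8a* difference was 4.01.

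The PA28 chains changed against *psme3* by 2.08 for *psme1* (pooled SD 0.19) and 2.81 for *psme2* (pooled SD 0.33) on the log2 scale. The fish-specific genes and *psma6l* were paired by their RefSeq synonyms and symbol, a choice made after seeing the data. *psmb12* over *psmb6* was higher in mutants by 4.68 (pooled SD 1.65), *psmb13a* over *psmb7* by 4.98 (pooled SD 0.68) and *psma6l* over *psma6a* by 1.604 (pooled SD 0.56). In each of these 8 pairs both mutants lay above both siblings, and each exact two-sided permutation test gave p = 0.333, the smallest the design allows. Adjustment over the 9 ratios tested, *psme2* over *psme1* included, leaves that value as it is. The 8 pairs are not separate results, since *psmb6*, *psmb7* and *psme3* each serve more than once. Their numerators were chosen with results of these data known.

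**Figure D3:**
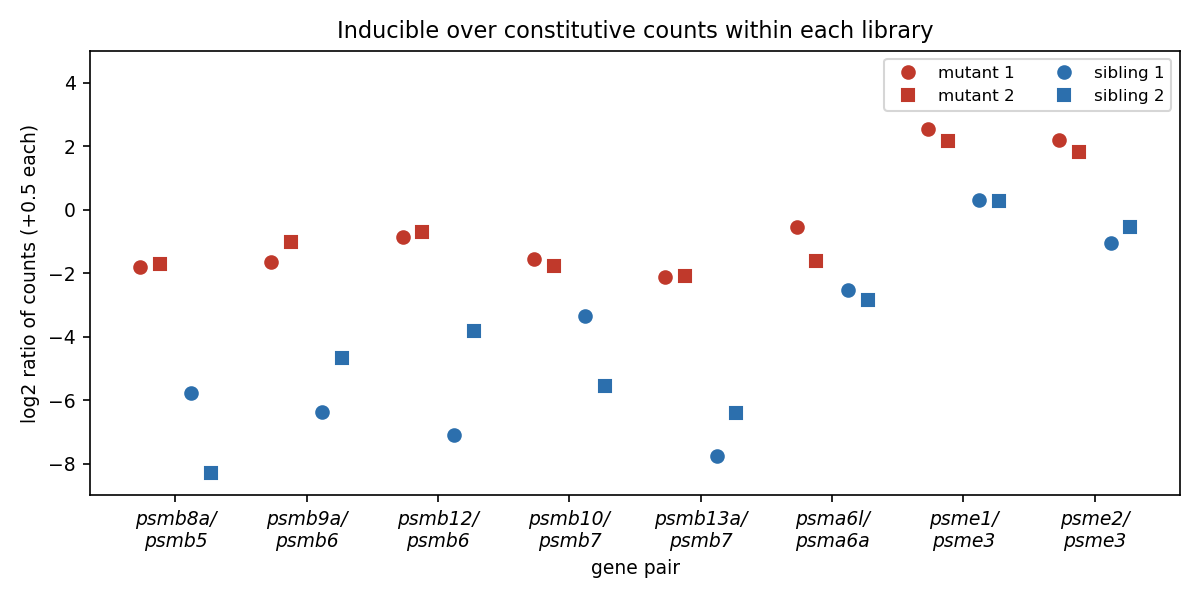
Log2 ratio of counts (0.5 added to each gene) of inducible gene over counterpart within each library, mutants in red and siblings in blue. In all 8 pairs both mutants lie above both siblings, and the siblings of *psmb12* over *psmb6* lie farthest apart.

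Of the 8 genes, 4 lie next to each other on chromosome 19 in the RefSeq annotation (assembly GRCz12tu), inside the MHC class I region: *psmb13a*, *psmb8a*, *psmb12* and *psmb9a*, in that order. The other members lie alone, *psmb10* on chromosome 4, *psme2* on 12, *psma6l* on 15 and *psme1* on 24. The 4 clustered genes had log2 fold changes from 4.94 to 5.50, above the 2.13 to 3.64 of the 4 genes elsewhere, without a test of that difference. Without sibling 1 these ranges met, since *psmb10* then had 4.60 and *psmb12* 4.29. The clustered genes had 4 or 5 counts each over both siblings, against 32 to 163 for the genes elsewhere. The folds of the cluster thus rest on few sibling counts. In this annotation *psmb13a* overlaps *psmb8a*, *psmb12*, *psmb9a* and *tap2a*, and *psmb8a* overlaps *psmb12* and *psmb9a*. The strand setting of the counting is not given in the sources used here, so reads of overlapping genes may not be told apart, and the counts came from another build.

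Genes flanking this cluster were taken by position, 6 named protein-coding genes on each side. On one side lay *tapbp.1* and *tapbp.2*, which encode tapasins that help load peptides, and *mhc1uba*, an MHC class I heavy chain gene. *tapbp.1* had 31.7 and 34.2 CPM in mutants 1 and 2, against 1.80 and 4.40 CPM in siblings 1 and 2 (log2 fold change 3.47 ± 0.39 SE, adjusted p = 0.000585 in edgeR), with 2.89 without sibling 1 and 4.17 without sibling 2. *tapbp.2* had 67 and 44 counts in mutants, against 3 and 0 in siblings (log2 fold change 4.55 ± 0.75 SE, adjusted p = 0.00463 in edgeR). Without sibling 2 the value for *tapbp.2* was 3.80, and against the 3-count floor of sibling 2 alone its mutant mean was at least 10.6-fold higher. On the other side *tap2a*, a subunit of the peptide transporter into the endoplasmic reticulum, had 47.5 and 46.3 CPM in mutants 1 and 2, against 1.58 and 1.89 CPM in siblings 1 and 2 (log2 fold change 4.76 ± 0.33 SE, adjusted p = 4.41e-05 in edgeR). *mhc1uba* had 57.9 and 252 CPM in mutants 1 and 2, against 0.676 and 1.57 CPM in siblings 1 and 2, or 3 and 5 sibling counts. Its mutants thus lay far apart, although well above the siblings, and the log2 fold change was 7.14 (± 0.82 SE, adjusted p = 0.000638 in edgeR), with values from 5.74 without mutant 2 to 7.83 without mutant 1 when a library was left out. All 4 of these antigen-processing neighbours were higher in both mutants than in both siblings, as were 28.0% of all genes tested. None of the 4 would have passed the low-count filter on the sibling libraries alone. Of the 4, *tapbp.2*, *mhc1uba* and *tap2a* could enter the test only by being high in mutants. *tapbp.1* reached the cut-off of the filter in sibling 2, so 1 mutant library at that cut-off was enough.

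Farther out the values differed. *daxx*, a histone chaperone gene beyond *tapbp.1*, had 16.7 and 23.0 CPM in mutants 1 and 2, against 16.2 and 15.7 CPM in siblings 1 and 2 (log2 fold change 0.29 ± 0.29 SE, adjusted p = 0.591 in edgeR). Beyond *tap2a*, *brd2a* had no counts in any library. *hsd17b8*, *col11a2*, *rxrba* and *sdha*, next along, had log2 fold changes of -0.18, 0.55, -0.13 and -0.09 (SE 0.43, 0.41, 0.20 and 0.24) and did not pass (edgeR adjusted p from 0.458 to 0.862). *col11a2* passed without sibling 2 (edgeR adjusted p = 0.0150). *zbtb22b* and *mhc1uka*, also in this stretch, were not matched to a row. The difference between flanking and inner genes was not tested.

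**Figure D4:**
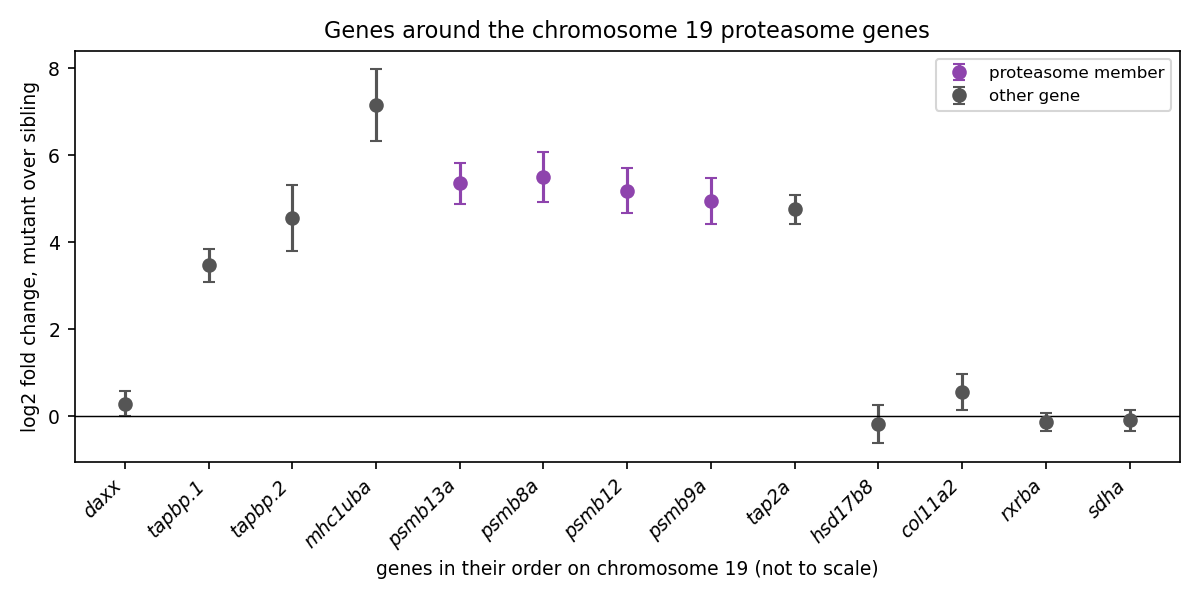
Log2 fold changes (mutant over sibling, edgeR, bars are 1 SE) of the tested genes in their order along chromosome 19, spaced evenly. The genes from *tapbp.1* to *tap2a* lie between 3.47 and 7.14, and the 5 outside them between -0.18 and 0.55.

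The rest of the proteasome was read from lists of core, regulatory and control genes. Of 16 constitutive 20S core genes, 3 passed as higher, and the median log2 fold change was 0.58, with all 16 above 0 also under both other scalings. Over all genes tested 4.58% passed as higher and 3.79% as lower, with a median of 0.00. The 3 encode beta-ring subunits without a peptidase site. *psmb2* had 60.3 and 71.0 CPM in mutants 1 and 2, against 39.7 and 24.8 CPM in siblings 1 and 2 (log2 fold change 1.01 ± 0.26 SE, adjusted p = 0.0396 in edgeR). *psmb3* and *psmb1* had log2 fold changes of 0.96 (± 0.25 SE, adjusted p = 0.0453 in edgeR) and 0.95 (± 0.25 SE, adjusted p = 0.0457 in edgeR). These 3 calls were lost without mutant 1, without mutant 2 or without sibling 2, and kept without sibling 1. The 3 log2 fold changes were 1.02 to 1.11 without mutant 1 and 0.84 to 0.89 without mutant 2. They were 1.33 to 1.39 without sibling 1 and 0.66 to 0.72 without sibling 2. The core median was 0.97 without sibling 1 and 0.33 without sibling 2, when 11 of the 16 log2 fold changes were above 0.

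Of 26 genes of the 19S regulatory particle, which recognises and unfolds ubiquitinated substrates, 2 passed as higher, against 4.58% of all genes tested. The median log2 fold change of the 26 was 0.56. *psmd10* stood apart, at 79.4 and 83.7 CPM in mutants 1 and 2, against 14.4 and 16.7 CPM in siblings 1 and 2 (log2 fold change 2.39 ± 0.23 SE, adjusted p = 0.000250 in edgeR). In mammals its product, gankyrin, is an assembly chaperone of the 19S base that leaves the finished particle. *psmd4b*, for a ubiquitin receptor subunit, had a log2 fold change of 0.86 (± 0.23 SE, adjusted p = 0.0436 in edgeR), a call lost with DESeq2 (adjusted p = 0.0593) and without mutant 1, mutant 2 or sibling 2 (edgeR adjusted p from 0.117 to 0.141). Without sibling 1, 7 genes of the particle passed.

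Of 10 genes for other activators, assembly and control, 2 passed as higher, against 4.58% of all genes tested, and both calls ended without mutant 2. They were *psmg1*, a 20S assembly chaperone (log2 fold change 1.14 ± 0.25 SE, adjusted p = 0.0211 in edgeR), and *nfe2l1b*, a copy of the transcription factor that induces proteasome genes when degradation fails (1.03 ± 0.23 SE, adjusted p = 0.0215 in edgeR). Its other copy *nfe2l1a* had a log2 fold change of 0.85 (± 0.26 SE, adjusted p = 0.0786 in edgeR), and passed with library totals or without sibling 1 (edgeR adjusted p = 0.0456 and 0.00431). *pomp*, the maturation protein of the core, had 77.5 and 76.8 CPM in mutants 1 and 2, against 52.1 and 40.2 CPM in siblings 1 and 2 (log2 fold change 0.74 ± 0.22 SE, adjusted p = 0.0673 in edgeR), and it passed without sibling 1 (edgeR adjusted p = 0.0229). *psme4b*, for the PA200 activator, differed by 0.12 (± 0.23 SE, adjusted p = 0.804 in edgeR). The genes of the thymic subunit, *psmb11a* and *psmb11b*, had at most 8 counts in a library and were not tested.

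**Figure D5:**
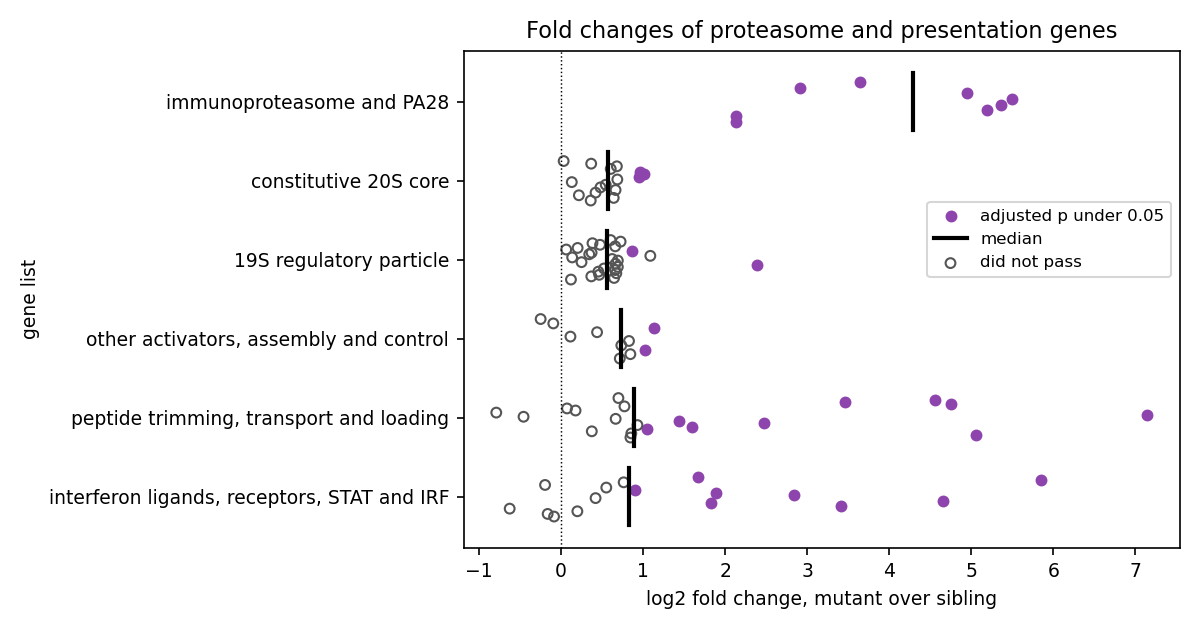
Log2 fold changes (mutant over sibling) of the tested genes in each list, filled where the edgeR adjusted p was under 0.05, with black bars at the medians. The immunoproteasome and PA28 genes have a median of 4.29, against 0.58 for the constitutive 20S core and 0.56 for the 19S particle.

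The steps after the proteasome were followed in a list of 40 symbols for peptide trimming, transport and loading, of which 23 were matched and 20 tested. Of the 20, 9 passed as higher, against 4.58% of all genes tested, with a median log2 fold change of 0.89. The 9 include *tapbp.1*, *tapbp.2*, *mhc1uba* and *tap2a*, the neighbours of the proteasome cluster described above. Of those neighbours, *tapbp.2*, *mhc1uba* and *tap2a* could enter the test only by being high in mutants. The aminopeptidase genes *erap1b* and *erap2*, which trim peptides in the endoplasmic reticulum, had log2 fold changes of 2.48 (± 0.23 SE, adjusted p = 0.000208 in edgeR) and 1.44 (± 0.26 SE, adjusted p = 0.00791 in edgeR). The lowest p of the list belonged to *b2m*, an MHC class I light chain gene (log2 fold change 5.05 ± 0.30 SE, adjusted p = 1.73e-05 in edgeR). The like-named *b2ml* had 1725 and 1237 CPM in mutants 1 and 2, against 925 and 709 CPM in siblings 1 and 2. It did not pass (log2 fold change 0.86 ± 0.36 SE, adjusted p = 0.1785 in edgeR). *calr3a* and *calr3b*, for the chaperone calreticulin, passed with 1.05 (± 0.25 SE, adjusted p = 0.0282 in edgeR) and 1.59 (± 0.38 SE, adjusted p = 0.0311 in edgeR), and neither passed without mutant 2 (edgeR adjusted p = 0.179 and 0.122). *calr*, also for calreticulin, had 0.38 (± 0.21 SE, adjusted p = 0.320 in edgeR) and did not pass. *mhc1zba*, an MHC class I gene of another lineage, had 24.98 and 0 CPM in mutants 1 and 2, against 42.8 and 4.09 CPM in siblings 1 and 2. Its replicates thus differed more than its groups (edgeR adjusted p = 0.702). *mhc1zda*, of that same lineage, had 48.98 and 53.2 CPM in mutants 1 and 2, against 52.3 and 37.4 CPM in siblings 1 and 2. Its log2 fold change was 0.18 (± 0.23 SE, adjusted p = 0.697 in edgeR).

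Of the genes upstream, in a list of interferon ligands, receptors, STAT and IRF genes, 21 of 26 symbols were matched and 16 tested. Of these 8 passed as higher, against 4.58% of all genes tested, and the median log2 fold change was 0.84. *ifnphi1* and *irf1a*, both among the 8, would not have passed the low-count filter on the sibling libraries alone. These genes could enter the test only by being high in mutants. *stat1b* had the lowest p. *irf1b*, of the family that binds proteasome and MHC promoters in mammals, stood at 977 and 1071 CPM in mutants 1 and 2, against 46.2 and 34.9 CPM in siblings 1 and 2 (log2 fold change 4.65 ± 0.34 SE, adjusted p = 5.51e-05 in edgeR). *irf8* had a log2 fold change of 2.84 (± 0.24 SE, adjusted p = 0.000161 in edgeR). Among the weaker calls, *irf1a* (1.82 ± 0.46 SE, adjusted p = 0.0383 in edgeR) did not pass with DESeq2 (adjusted p = 0.0684) or limma-voom (adjusted p = 0.0588). *jak1* had 0.91 (± 0.24 SE, adjusted p = 0.0441 in edgeR), and 0.77 to 1.05 when a library was left out. Neither *irf1a* nor *jak1* passed without mutant 1, without mutant 2 or without sibling 2. The receptor genes *crfb1*, *crfb2*, *ifngr1* and *ifngr1l* did not pass, with -0.08, -0.16, 0.20 and -0.62 (edgeR adjusted p from 0.416 to 0.893). The type I interferon gene *ifnphi1* had 6.38 and 8.63 CPM in mutants 1 and 2, against 0.225 and 1.26 CPM in siblings 1 and 2 (log2 fold change 3.41 ± 0.67 SE, adjusted p = 0.0114 in edgeR). The sibling values of *ifnphi1* rest on 1 and 4 counts, and its log2 fold change was 2.52 without sibling 1 and 4.89 without sibling 2. The other type I genes *ifnphi2*, *ifnphi3* and *ifnphi4* had at most 2.30 CPM in any library and were not tested. The interferon-gamma genes *ifng1* and *ifng1r* had at most 0.863 CPM in any library and were not tested either.

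The genes with the profile nearest to *psmb8a* were found by the root mean square distance of log2 CPM, centred on each gene's mean over the 4 libraries. The 8 members, rows without a symbol and genes with clone-style names were passed over. *psmb8a* had no counts in sibling 2, so its value there was set by the prior count of 2. Nearest to *psmb8a* were *ms4a17a.2* (0.41), *cd9r* (0.50), *dhrs13b.2* (0.50), *irf1b* (0.52) and *cd40* (0.59), where *cd40* encodes a receptor of antigen-presenting cells. Nearest to the median profile of the 8 genes were *dhx58* (0.13), *ssuh2.2* (0.17), *txnb* (0.19), *gbp1* (0.20) and *etv7* (0.24). *dhx58* encodes an RNA helicase of viral sensing, and stood at 94.1 and 128 CPM in mutants 1 and 2, against 6.76 and 6.92 CPM in siblings 1 and 2. *gbp1*, a GTPase of the interferon response, stood at 36.9 and 49.5 CPM in mutants 1 and 2, against 3.61 and 3.46 CPM in siblings 1 and 2. With 4 libraries this likeness mostly reflects the difference between the groups.

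Leukocyte markers were read beside these results, since blood cells carry the immunoproteasome without induction. Of 8 matched macrophage and pan-leukocyte markers, 7 were tested, 1 passed as higher (*mpeg1.2*) and 2 as lower (*coro1a* and *mpeg1.1*). *laptm5*, *spi1b*, *csf1ra* and *lcp1* did not pass, with log2 fold changes of -0.75, -0.43, -0.17 and 0.29 (edgeR adjusted p from 0.256 to 0.798). Of the 7 tested, 5 were below 0, and the median log2 fold change was -0.43. The summed level of the 8 matched markers was 139 to 152 CPM in mutants, against 110 to 112 CPM in siblings. Of that sum, *mpeg1.2* alone gave 93.9 and 95.5 CPM in mutants 1 and 2, against 20.1 and 25.5 CPM in siblings 1 and 2. Of 7 neutrophil markers, 6 were tested and 3 passed as higher, *mpx*, *mmp13a* and *srgn*, and *npsn* had no counts in any library. The others tested, *lyz*, *ncf1* and *nccrp1*, had overlapping groups and did not pass (edgeR adjusted p from 0.491 to 0.841). Their log2 fold changes were 0.42, 0.15 and 0.16. Of the 3 that passed, *mmp13a* had 4 and 3 counts in siblings 1 and 2, and could enter the test only by being high in mutants. The neutrophil markers summed to 273 to 283 CPM in mutants, against 121 to 122 CPM in siblings. *srgn* alone gave 143 and 130 CPM in mutants 1 and 2, against 54.6 and 46.5 CPM in siblings 1 and 2. Over all genes tested 4.58% passed as higher and 3.79% as lower. Of 9 lymphoid and thymus markers, 3 were tested and *rag1* passed as lower, with a summed level of 10.3 to 10.9 CPM in mutants, against 17.8 to 21.4 CPM in siblings. *rag1* alone gave 1.32 and 1.44 CPM in mutants 1 and 2, against 5.19 and 8.80 CPM in siblings 1 and 2. It could enter the test only by being high in siblings. The others tested, *ikzf1* and *il7r*, had log2 fold changes of 0.01 and -0.31 and did not pass (edgeR adjusted p = 0.993 and 0.786). The markers not tested, *rag2*, *lck*, *cd4-1*, *cd8a*, *zap70* and *foxn1*, had at most 2.83 CPM in any library. Of these, the T cell gene *lck* had no counts in either mutant, against 0 and 2 counts in siblings 1 and 2. Some of these calls were lost when a library was left out. *mpeg1.1* and *mmp13a* did not pass without mutant 1 (log2 fold change -1.43 and 2.51), nor did *coro1a* without mutant 2 (-1.39). *rag1* did not pass without either mutant or without sibling 2 (log2 fold change -2.36 to -1.91, against -2.32 with all 4 libraries). The part of leukocyte number in the proteasome results was not tested. The exocrine pancreas markers, of which all 18 tested passed as lower, summed to 355 to 2549 CPM in mutants, against 14776 to 30643 CPM in siblings. Of these, *ptf1a* could enter the test only by being high in siblings. With DESeq2 16 of the 18 passed as lower. *cela1.3*, which had no counts in mutant 2, did not (DESeq2 adjusted p = 0.313). The within-library ratios above remove library scaling only. The part of tissue make-up in the proteasome results was not tested.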

How the data were processed

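Ribosome-depleted RNA of 2 mutant and 2 sibling pools was measured. The authors deposited raw counts per RefSeq accession and per repeat name; the repeat table was not used here. The submitters' processing notes name build GRCz10 and the tools HTSeq, DESeq2 and Bowtie2 2.1.0. What each tool did, the annotation, strand and multi-mapping settings were not given in the sources used here. Accessions were matched to symbols in RefSeq GRCz12tu (14472 of 15171 rows), and its coordinates served for gene order only.

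Groups and replicate numbers come from the titles. Counts were tested in R 4.3.3 with edgeR 4.0.16 (filterByExpr, TMM, glmQLFTest, no block), with Benjamini-Hochberg adjustment over 12786 genes and a threshold of 0.05. The SE is the log2 fold change over the square root of F. Log2 CPM used a prior count of 2. The test was checked on simulated data. Members and lists were chosen with earlier results of these data known. Named genes were the 8 members, their counterparts, up to 4 lowest-p genes per list, the 5 nearest to each of 2 profiles, and chromosome 19 neighbours (added later). Genes that passed in short lists were also named after their values were seen.

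Protein sequences were not used here, so *psmb12*, *psmb13a* and *psma6l* were paired by RefSeq names. Alternatives were DESeq2 1.42.0, limma-voom (limma 3.58.1), other scalings and filters, the replicate block, summed rows, other pseudocounts, and leaving out each library. Replicates were no duplicates (chi-square per degree of freedom 14.4 in mutants and 16.9 in siblings).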

Additional observations from a re-analysis of the deposited data

How the results depend on the processing

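Over the 12 alternatives, all members kept a positive log2 fold change, and each kept its call except *psmb10*, given above. The number of members that passed ran from 7 to 8 when a library was left out. Leaving out libraries moved the counts over all genes to between 333 and 805 higher and between 243 and 754 lower, against 585 and 485. It also moved the number higher to between 0 and 9 in the 20S core, 1 and 7 in the 19S particle, 0 and 4 among other activators, 7 and 11 in peptide loading and 6 and 9 among interferon genes, 1 macrophage marker, and 2 to 3 neutrophil markers. Some lower calls among macrophage, lymphoid and pancreas markers were also lost when a library was left out. No lymphoid marker reached 50 counts in 2 libraries, so none was tested with that filter.

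With the replicate number as a block, 1366 genes were higher and 1165 lower, with 8 in the 20S core, 13 in the 19S particle, 6 among other activators, 14 in peptide loading, and all 8 members. *psmb5* (edgeR adjusted p = 0.0132), *psme3* (0.0176), *pomp* (0.00771), *nfe2l1a* (0.00142) and *col11a2* (0.0285) also passed with this block. Same-numbered libraries share only a number, and their deviations correlated at 0.24 over 12786 genes, which does not establish a pairing. Against the mean of the 20S core genes the *psme1* difference was 2.31, against 2.08 with *psme3*. Ratio differences without 1 library ran from 4.01 to 6.53 for *psmb8a*, 3.33 to 5.03 for *psmb9a*, 1.69 to 3.90 for *psmb10*, 3.04 to 6.33 for *psmb12*, 4.30 to 5.66 for *psmb13a*, 1.06 to 2.14 for *psma6l*, 1.89 to 2.27 for *psme1*, 2.55 to 3.06 for *psme2* and 0.45 to 1.01 for *psme2* over *psme1*. Library totals moved the median of all genes to 0.08. Sibling depth limits *psmb8a*, *psmb9a*, *psmb12* and *psmb13a*, which had at most 5 counts over both siblings.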
